A study of Mus musculus with 6 samples.

Results

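The NF-kB subunits and feedback inhibitors were read in wire-injured mouse carotid arteries with and without IRF4. The set was chosen by gene symbol: every probe set whose single annotated symbol was Nfkb1, Nfkb2, Rel, Rela, Relb, Nfkbia, Nfkbie, Nfkbiz, Tnfaip3 or Ikbkb. Of these 10 genes, 9 were measured, by 22 of the 45037 probe sets that are not controls; they are 9 of 18193 genes. No probe set was named Nfkb1 alone in the annotation used, and Nfkb1 was not analysed here. The arrays held RNA of mice lacking IRF4 in the whole body (IRF4 KO, 3 arrays) and of wild-type mice (WT, 3 arrays). All mice of both genotypes had a wire injury of the carotid artery, and the vessels were taken 14 days later, so no uninjured artery was compared. Each array pooled 3 to 5 vessels, and the samples are labelled as biological replicates. Strain, age and the deleted part of Irf4 are not stated in the sources used here. Values are log2 probe set intensities, so a difference of 1 is a 2-fold difference, and changes are IRF4 KO minus WT.

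NF-kB is a family of dimeric transcription factors. In a resting cell the dimers are held in the cytoplasm by IkB proteins; cytokine, Toll-like or other receptors activate the IkB kinase complex, which marks IkB for destruction and lets the dimers enter the nucleus. There they switch on cytokine, chemokine and adhesion genes, and also the genes of their own inhibitors, such as IkB-alpha (Nfkbia) and the ubiquitin-editing enzyme A20 (Tnfaip3), whose mRNA levels are often read as signs of pathway activity. In the artery wall the pathway is active in endothelium, smooth muscle and macrophages after injury. The comparison asks whether these pathway and feedback genes shifted together with the inflammatory cytokine genes when IRF4 was absent.

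Promoters of 3 inhibitor genes are shown first, because their transcripts are the feedback readouts of the results that follow. RefSeq promoter windows of the assembly GRCm38.p6 (250 bases before to 50 after the annotated start) were on hand for 6 of the measured genes. The kB consensus, a 10-base motif searched on both strands, lay in a window of 5 of these 6 genes (Nfkb2, Rel, Nfkbia, Nfkbie and Tnfaip3, but not Rela), where 5.14% of all 27025 genes with a window hold it in at least 1 window. A second form, GGGNNTTTCC, overlaps the consensus but also allows bases that the consensus does not. It lay in windows of 4 of the 6 (Nfkb2, Rel, Nfkbia and Tnfaip3), against 1.89% of all genes with a window. In the same scan the window of Il6 held 1 match to each form, and the windows of Tnf and Il1b held 0. Capitals mark matches to the consensus, each window is read 5′ to 3′ on the gene's strand, and a match to the opposite strand appears as its reverse complement. The Nfkbia window (chr12:55492598-55492897, minus strand) holds GGGAATTTCC on the opposite strand, 29 to 20 bases before the start. The Tnfaip3 window (chr10:19015361-19015660, minus strand) holds GGGACACCCC in its own strand and GGGGATTTCC on the other, the second of them 12 to 3 bases before the start. The Nfkbie window (chr17:45555450-45555749, plus strand) holds GGGGGATTCC.
Nfkbia: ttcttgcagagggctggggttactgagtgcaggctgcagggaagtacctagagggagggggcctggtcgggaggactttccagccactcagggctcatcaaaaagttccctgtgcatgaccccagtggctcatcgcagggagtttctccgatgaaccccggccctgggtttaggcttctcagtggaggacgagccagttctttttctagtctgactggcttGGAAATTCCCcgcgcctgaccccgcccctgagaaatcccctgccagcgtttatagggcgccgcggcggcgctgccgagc
Tnfaip3: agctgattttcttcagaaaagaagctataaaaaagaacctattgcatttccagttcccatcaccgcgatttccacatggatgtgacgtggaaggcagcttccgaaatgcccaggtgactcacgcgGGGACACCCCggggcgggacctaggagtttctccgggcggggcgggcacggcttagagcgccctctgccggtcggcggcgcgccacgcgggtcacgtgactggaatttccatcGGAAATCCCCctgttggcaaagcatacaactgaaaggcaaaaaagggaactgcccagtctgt
Nfkbie: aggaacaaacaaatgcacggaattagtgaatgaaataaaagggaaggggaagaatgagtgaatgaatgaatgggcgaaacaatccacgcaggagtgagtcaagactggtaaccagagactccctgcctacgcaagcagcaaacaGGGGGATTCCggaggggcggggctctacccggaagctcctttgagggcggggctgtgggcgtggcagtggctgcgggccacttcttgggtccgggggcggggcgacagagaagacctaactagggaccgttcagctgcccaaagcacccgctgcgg

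The arrays had medians between 3.94 and 4.12, and 2 of them, 1 of each genotype, stood apart. In IRF4 KO 1 and WT 3 the poly-A spike-in controls, bacterial RNAs spiked in ahead of the labelling step, averaged 5.14 and 4.93, against 7.35 to 9.26 in the other 4 arrays. The summed intensity of 12 macrophage marker genes was 12.9 and 11.7 on the log2 scale in IRF4 KO 1 and WT 3, against 8.10 to 9.41 elsewhere, and that of 8 cartilage genes 12.9 in both against 7.09 to 7.64. For 7 adventitial fibroblast genes it was 13.6 and 13.1 in these 2 arrays, against 10.5 to 10.8 elsewhere. The smooth muscle markers were bright in every array, with log2 sums of 15.0 to 15.2 in IRF4 KO and 14.3 to 14.6 in WT. Such sums were taken on unlogged values, so the brightest smooth muscle markers, Acta2 and Tagln, weigh most in them. Of these 10 markers, Acta2, Tagln and Smtn differed by 1.14, 1.08 and 1.09 with no overlap of the genotypes and unadjusted p under 0.05, none past the threshold over all genes, and the list median was -0.039. In such bulk samples fewer cells of a type and less RNA per cell cannot be told apart. Irf4 itself read 3.27, 3.75 and 3.70 in IRF4 KO and 3.90, 3.64 and 3.38 in WT on its brighter probe set, levels that overlap and lie below the median of all gene means (4.89), so the probe set did not check the genotype labels.

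Of the 9 NF-kB genes, 0 had an unadjusted p under 0.05, and the genotypes overlapped in all 9. The 22 genes set beside them are called cytokine and adhesion genes here. The list also holds Nos2, Ptgs2 and Cd86, which are neither. Of these 22, 9 did not overlap between the genotypes and were higher in IRF4 KO, against 2.37% of all genes. Csf2 was higher by 0.36 and the other 8 by 1.05 to 1.31. For these 8 the unadjusted p was under 0.05, though not past the threshold over all genes. Changes of this size without overlap were also found for the 3 smooth muscle markers named above, whose part in the cytokine values was not tested. With limma, 0 of 9 NF-kB genes and 0 of 22 NF-kB probe sets had an adjusted p under 0.05. The same held for 0 of the 22 cytokine and adhesion genes, 0% of all genes and 0% of all probe sets. At this threshold the gene test found 0% of changes of 1 log2 unit set into these genes (see the processing section). The adjusted test therefore does not separate the NF-kB list from the cytokine list. At an unadjusted p under 0.05 there were 0 of 9 genes, where 0.407% of all genes passed as higher and 1.08% as lower in IRF4 KO, and 0 of 22 probe sets, where 0.615% of all probe sets passed as higher and 1.12% as lower. The changes of the 9 genes lay between -0.56 (Nfkbie) and 0.18 (Nfkb2) with a median of -0.0072, against -0.0015 over all genes; 4 were higher and 5 lower. The 95% interval of the change lay below a 2-fold increase for 7 of the 9 genes. It did not for Relb and Nfkbie, whose upper bounds were 1.21 and 1.51. It lay above a 2-fold decrease for 6 of the 9, but not for Nfkbie, Ikbkb and Nfkbiz, whose lower bounds were -2.63, -1.09 and -1.01.

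**Figure D1:**
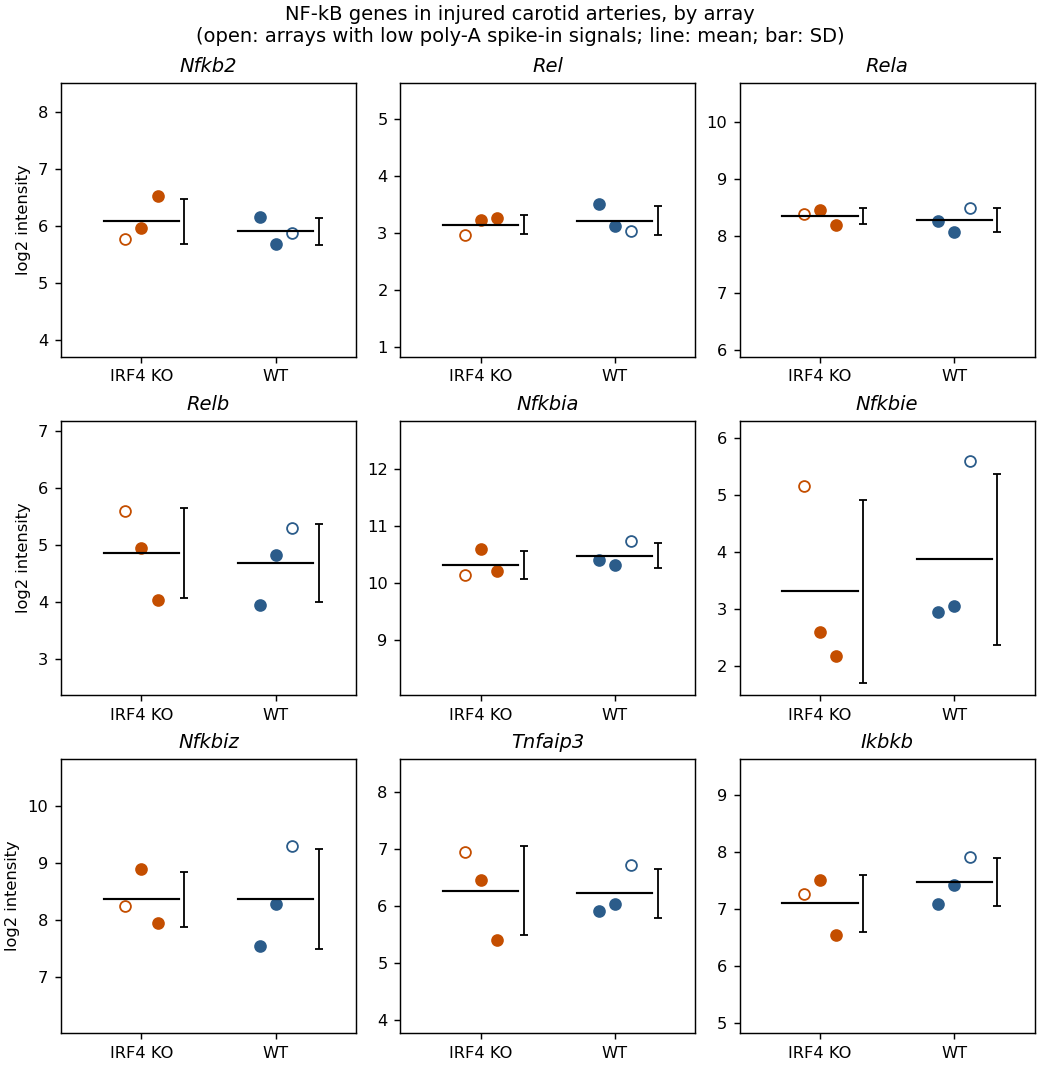
Log2 intensity (vertical axes, each spanning the same range) of the 9 measured NF-kB genes on the probe set with the highest mean, in 3 IRF4 KO and 3 WT arrays. Points are arrays, open points the 2 arrays with low poly-A spike-in signals, lines means and bars SD; the genotypes overlap in all 9 genes, and the open points lie highest for Relb, Nfkbie and Tnfaip3.

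Rela and Rel, the subunits with a transactivation domain of the classical pathway, overlapped between the genotypes. Rela had 8.38, 8.46 and 8.19 in IRF4 KO and 8.26, 8.07 and 8.48 in WT. Its highest and lowest arrays were both WT, and the change was 0.073 (SE 0.19, 95% interval -0.37 to 0.52, limma adjusted p = 0.999). Rel, which is best known from lymphoid and myeloid cells, had 2.95, 3.22 and 3.25 in IRF4 KO and 3.50, 3.11 and 3.02 in WT. These values overlap and are dim, and RMA can understate changes at such levels, which was not tested here.

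Relb and Nfkb2 form the dimer of the alternative pathway, in which the precursor p100 made from Nfkb2 is cut to p52. Relb had 5.61, 4.95 and 4.04 in IRF4 KO and 3.95, 4.82 and 5.31 in WT. Its 2 highest arrays were IRF4 KO 1 and WT 3, and within each genotype it spanned more than 1 log2 unit. The change of 0.17 therefore had a wide interval (-0.86 to 1.21, limma adjusted p = 0.999). Nfkb2 was read by 2 probe sets. The brighter, with a suffix that marks possible cross-hybridisation, had 5.76, 5.96 and 6.51 in IRF4 KO and 6.15, 5.69 and 5.86 in WT. The other had 5.90, 5.23 and 5.36 in IRF4 KO and 5.29, 5.22 and 5.39 in WT, where a single array, IRF4 KO 1, was above all others. Their changes, 0.18 and 0.19, were alike in size, but the array that stood highest was a different one in each.

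The kinase gene Ikbkb encodes IKK-beta, the catalytic subunit of the IkB kinase complex that phosphorylates IkB-alpha. Its brightest probe set had 7.27, 7.51 and 6.54 in IRF4 KO and 7.08, 7.43 and 7.92 in WT. The change there was -0.37 (SE 0.31, 95% interval -1.09 to 0.34, limma adjusted p = 0.999), with IRF4 KO 3 the lowest array and WT 3 the highest; without IRF4 KO 3 it was -0.091 and without WT 3 it was -0.15. Of its other 4 probe sets, 3 were higher in IRF4 KO by 0.12 to 0.23 and 1 differed by -0.10, and the mean of all 5 gave a change of 0.00067. The probe sets of Ikbkb thus disagreed in direction.

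Nfkbia, the gene of IkB-alpha and the classical feedback target, had lower means in IRF4 KO on all 5 of its probe sets. This direction was opposite to that of the 8 cytokine and adhesion genes with changes above 1. None of the 5 passed the test. The brightest (1420088_at), which stands for the gene, had 10.1, 10.6 and 10.2 in IRF4 KO and 10.4, 10.3 and 10.7 in WT. These overlap, and the change was -0.16 (SE 0.21, 95% interval -0.65 to 0.32, limma adjusted p = 0.999). Without WT 3 it was -0.039. The probe set 1438157_s_at had 8.99, 9.02 and 8.49 in IRF4 KO and 9.46, 9.05 and 9.36 in WT. Every IRF4 KO array was below every WT array there, by 0.46 on average (limma unadjusted p = 0.0672). That difference was -0.28 without IRF4 KO 3 and -0.12 with array weights. In the gene fit such weights rested mostly on IRF4 KO 2 (26.7, against 0.28 to 2.57 elsewhere), and the fit stopped before convergence. The suffix of this probe set marks probes that can also match transcripts of other genes. The probe set 1448306_at had 8.29, 8.21 and 8.19 in IRF4 KO and 8.33, 8.49 and 8.39 in WT. Here too the genotypes did not overlap, with a change of -0.18, or -0.10 after quantile normalization.

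The remaining Nfkbia probe sets overlapped between genotypes. The probe set 1449731_s_at had 8.80, 8.95 and 8.41 in IRF4 KO and 9.03, 8.80 and 9.36 in WT; it carries the same suffix, and its change of -0.34 was -0.18 without IRF4 KO 3 and -0.19 without WT 3. The dimmest, 1420089_at, had 4.85, 5.01 and 5.04 in IRF4 KO and 6.15, 5.38 and 4.75 in WT, so that its change of -0.47 came with 1 high array, WT 1, and was -0.10 without it. Non-overlap in the lower direction was found for 2 of the 22 NF-kB probe sets, both of Nfkbia, against 3.24% of all probe sets, and in the higher direction for 0 of 22, against 2.75%. At the level of genes, 0 of 9 did not overlap, against 2.37% of all genes in the higher and 3.31% in the lower direction. The 5 probe sets are annotated to 1 gene and were read in the same RNA, so they are not independent evidence. All 5 stayed lower after array median subtraction and after quantile normalization. With array weights, which have the limit given above, 1420088_at turned to 0.20 and 1449731_s_at to 0.045. Without IRF4 KO 1 and WT 3 the probe set 1420088_at read 0.046 higher in IRF4 KO.

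**Figure D2:**
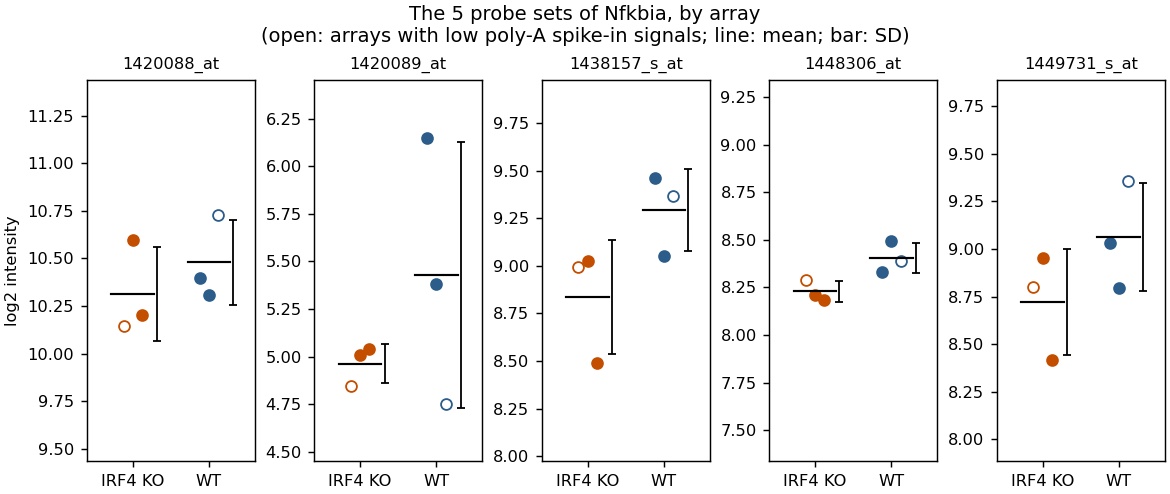
Log2 intensity (vertical axes, each spanning the same range) on the 5 probe sets of Nfkbia in 3 IRF4 KO and 3 WT arrays; points are arrays, open points the 2 arrays with low poly-A spike-in signals, lines means and bars SD. The mean was lower in IRF4 KO on all 5, and the genotypes did not overlap on 1438157_s_at and 1448306_at.

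The other inhibitors varied more between arrays than between genotypes. Tnfaip3, which encodes A20, had 6.95, 6.46 and 5.42 in IRF4 KO and 5.91, 6.05 and 6.72 in WT on its brighter probe set. The 2 highest arrays were again IRF4 KO 1 and WT 3, and the lowest was an IRF4 KO array; the change was 0.045 (SE 0.40, 95% interval -0.87 to 0.95, limma adjusted p = 0.999). Its other probe set was dim and differed by 0.014. Nfkbie encodes IkB-epsilon, an inhibitor that NF-kB also induces. Its probe set with the highest mean had 5.15, 2.59 and 2.18 in IRF4 KO and 5.60, 2.94 and 3.05 in WT. The 2 high arrays were IRF4 KO 1 and WT 3, 1 of each genotype, and the change of -0.56 had an interval from -2.63 to 1.51. The second Nfkbie probe set had 3.37, 2.62 and 3.37 in IRF4 KO and 3.12, 2.89 and 3.07 in WT and did not show that pattern; the suffix of the first marks probes that can also match transcripts of other genes.

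Nfkbiz encodes IkB-zeta, a nuclear IkB that acts as a co-activator of a subset of NF-kB targets, Il6 among them. Its brightest probe set had 8.25, 8.90 and 7.95 in IRF4 KO and 7.55, 8.28 and 9.29 in WT. WT held both the highest and the lowest array, and the change was -0.0072 with an interval from -1.01 to 0.99. The other 2 probe sets were higher in IRF4 KO by 0.46 and 0.083, both with overlap.

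Several of the NF-kB genes were high in IRF4 KO 1 and WT 3. Of the 9 genes, 7 were higher on average in these 2 arrays than in the other 4, against 47.3% of all genes. The largest differences were those of Nfkbie (2.68), Relb (1.02) and Tnfaip3 (0.88). On the second probe sets of Nfkbie and Tnfaip3 they were 0.22 and -0.27. The macrophage, cartilage and fibroblast markers named above were high in the same 2 arrays, and their part in these values was not tested. Both sets of arrays held both genotypes, so the change was also read within each. Between IRF4 KO 1 and WT 3 the 9 genes had a median change of -0.11 with 2 higher in IRF4 KO, and among the other 4 arrays 0.046 with 5 higher. The sign differed between the 2 sets for 5 of the 9 genes (Nfkb2, Rela, Nfkbia, Nfkbiz and Tnfaip3), against 47.9% of all genes. For Nfkbiz the change was -1.04 in the first set and 0.51 in the second, the widest split of the 9. Of the 22 cytokine and adhesion genes, 6 differed in sign between the sets. For the 8 with changes above 1 a common sign was fixed by choosing them without overlap of the genotypes, and their changes within the sets were 0.92 to 1.40.

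**Figure D3:**
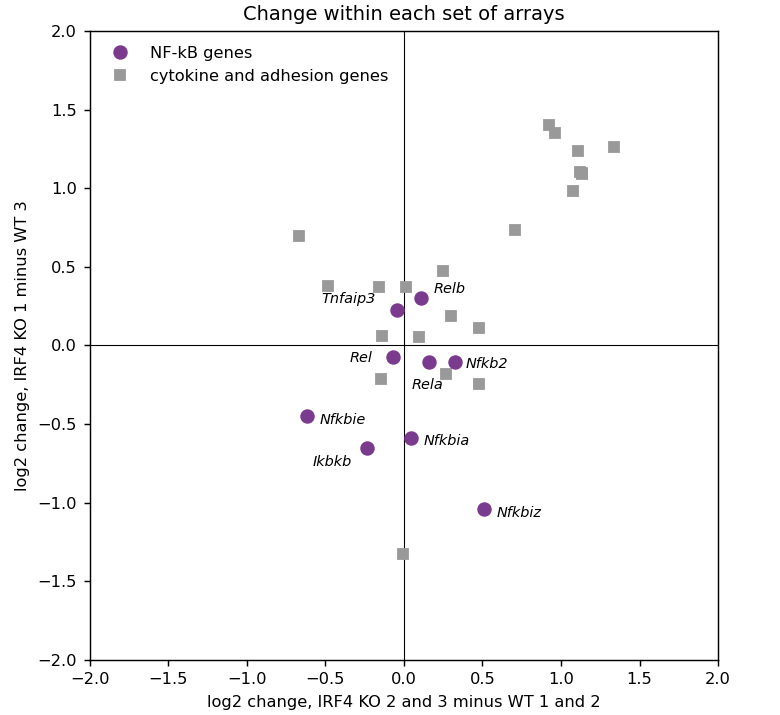
Log2 change of each gene between IRF4 KO 2 and 3 and WT 1 and 2 (horizontal) and between IRF4 KO 1 and WT 3 (vertical), for 9 NF-kB genes (circles, named) and 22 cytokine and adhesion genes (squares). Of the NF-kB genes 5 differ in sign between the axes, Nfkbiz (0.51 and -1.04) most widely, as do 6 of the 22 cytokine and adhesion genes; the 8 chosen for changes above 1 without overlap lie between 0.92 and 1.40 on both.

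The cytokine and adhesion genes, most of them textbook NF-kB targets, are the other side of the comparison. Tnf, the cytokine that both activates NF-kB and is induced by it, had 5.02, 5.23 and 5.25 in IRF4 KO and 3.96, 3.85 and 3.76 in WT. Vcam1, an adhesion receptor for leukocytes, had 9.66, 9.77 and 9.61 in IRF4 KO and 8.43, 8.69 and 8.56 in WT. The interleukin gene Il6 had 3.09, 2.75 and 3.18 in IRF4 KO and 2.09, 1.92 and 1.74 in WT. In these genes each IRF4 KO array was above each WT array. Of the 8 genes, 4 (Tnf, Il6, Ccl2 and Cd86) had means below the median of all gene means, as did Rel, Relb and Nfkbie among the NF-kB genes. RMA can understate changes at such levels, which was not tested here. Among the 8, Il6 lay closest to the floor, with WT values of 1.74 to 2.09 where the lowest values of the WT arrays were 1.34 to 1.45. The others of the 8 were Il1b (1.05), Ccl2 (1.11), Ccl5 (1.08), Nos2 (1.15) and Cd86 (1.12), and the smallest limma adjusted p among the 22 genes was 0.252.

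Other genes of the list had smaller or opposite changes. Icam1, a classical NF-kB target of endothelium, had 7.36, 6.85 and 5.91 in IRF4 KO and 6.77, 6.94 and 6.98 in WT. Its change of -0.19 (95% interval -0.98 to 0.59) was opposite in sign to that of Vcam1, and the genotypes overlapped. The chemokine gene Ccl3 differed by 0.72 (limma unadjusted p = 0.0216), with overlap. Over all 22 genes the median change was 0.29 with 17 higher in IRF4 KO, and over the 14 genes without the 8 it was 0.099; leaving out the 8 for their size is a description and not a test.

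**Figure D4:**
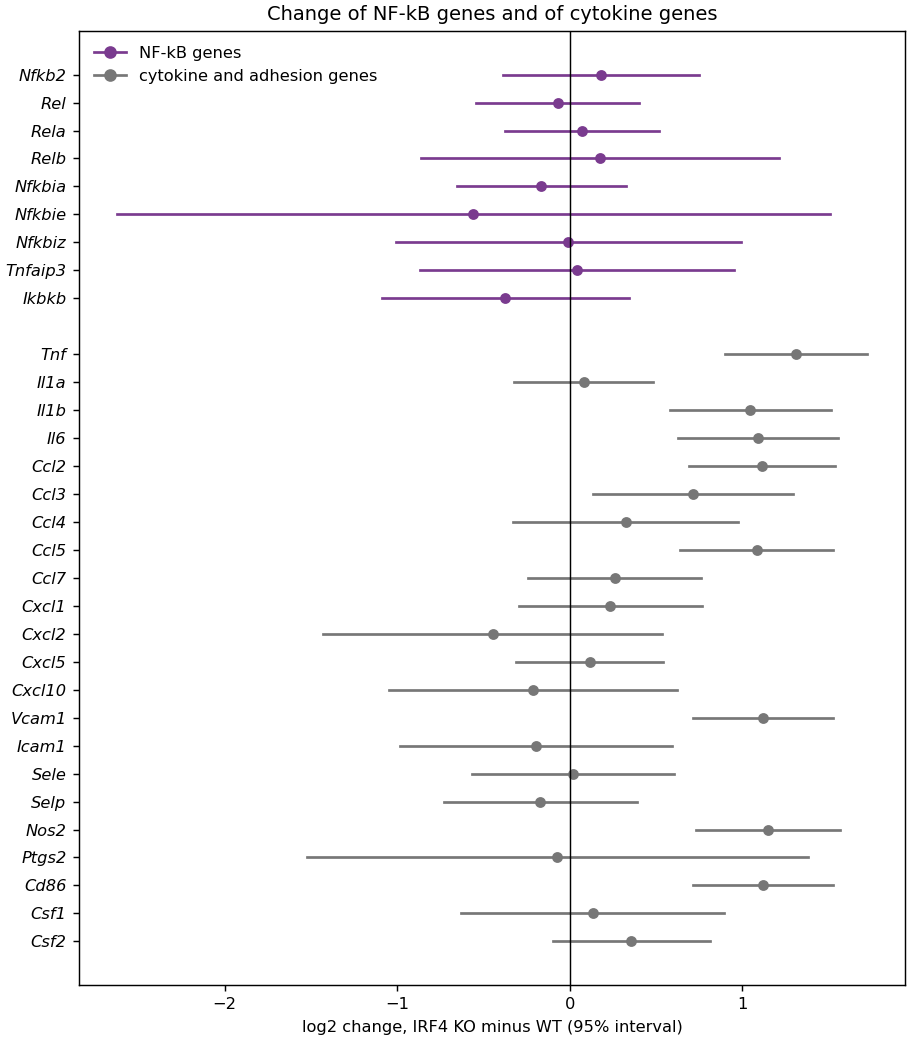
Log2 change, IRF4 KO minus WT, with its 95% interval from limma (3 arrays per genotype) for the 9 NF-kB genes (top) and the 22 cytokine and adhesion genes (bottom). All 9 intervals of the NF-kB genes include 0, whereas 8 cytokine and adhesion genes lie between 1.05 and 1.31.

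The SD within a genotype, pooled over both, was 0.17 to 1.56 for the 9 NF-kB genes, with a median of 0.46, against 0.23 over the 22 cytokine and adhesion genes and 0.29 over all genes. It was 0.10 to 0.20 for the 8 genes with changes above 1; choosing them without overlap favours such small SDs, and 25.6% of all genes had an SD no larger than the highest of the 8. Over all genes, 23 combined an SD that small with a change above 1 in size, 14 of them higher in IRF4 KO. These 23 changes lay between 1.03 and 1.31 in size. The genes included the 8, the 3 smooth muscle markers named above, the macrophage marker Mrc1 (-1.03) and 0 NF-kB genes. Changes in this narrow range came at dim and bright levels, such as Il6 (WT mean 1.92) and Acta2 (WT mean 12.8). The cause of this was not tested. Of the 6 NF-kB genes with several probe sets, Nfkb2, Nfkbia and Tnfaip3 had changes of 1 sign on all of them, and Ikbkb, Nfkbie and Nfkbiz did not.

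The wider pathway was read from 3 further lists. Of 11 other IkB and IKK genes, 13 receptor adaptors and 15 negative regulators, 0 of 39 passed with limma, and 1 had an unadjusted p under 0.05. That gene was Tab1, an adaptor of the kinase TAK1 upstream of IKK, which had 4.65, 4.61 and 4.71 in IRF4 KO and 4.20, 4.41 and 3.998 in WT (limma unadjusted p = 0.0407). The genotypes did not overlap there, while its other probe set differed by -0.071. The median change of the 39 genes was -0.089, with 14 higher and 25 lower in IRF4 KO.

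Among the IkB and IKK genes, Ikbkg, the regulatory subunit NEMO, differed by -0.14, and Nfkbib (IkB-beta) by -0.28. The other Ikbkg probe sets differed by 0.33, 0.13, 0.11, 0.054 and -0.18, so they disagreed in direction. The nuclear IkB genes Bcl3 and Nfkbid differed by 0.023 and -0.18, and Map3k14, the kinase NIK of the alternative pathway, by 0.29. Birc3 and Traf1, adaptors that NF-kB itself induces, differed by -0.29 and 0.16. Both lay higher in IRF4 KO 1 and WT 3 than in the other arrays, by 0.82 and 0.60. The genotype change of the other Birc3 probe set was 0.12. Tnip1, a partner of A20, differed by -0.38 and was also higher in those 2 arrays, by 1.05. Cyld, a deubiquitinase that restrains the pathway, differed by -0.28. Its other probe sets differed by -0.34, -0.28 and 0.13.

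Of 18 other NF-kB target genes, 0 passed with limma and 7 were higher in IRF4 KO, with a median change of -0.11. Gadd45b, a stress-response gene, had 6.88, 6.42 and 5.87 in IRF4 KO and 7.43, 7.18 and 7.57 in WT. The genotypes did not overlap, and no other gene of this list had an unadjusted p under 0.05. Its change was -1.003 (limma adjusted p = 0.999, unadjusted p = 0.00604), while its other probe sets differed by -0.33 and -0.29. Sod2, the mitochondrial superoxide dismutase, differed by -0.29, the transcription factor gene Irf1 by -0.25 and the receptor gene Cd40 by -0.44. For Cd40 another probe set differed by 0.31 in the opposite direction.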

How the data were processed

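The deposited values are log2 intensities of probe sets. The authors made them, per the submitters' processing notes, in Affymetrix Expression Console by RMA (background correction, between-array normalization, probe summary); no version is stated in the sources used here. Biotin-labelled cRNA was made from 400 ng of total RNA per array. Of 45101 probe sets, 64 controls were set aside and 34945 had 1 symbol in the platform annotation. A gene (18193 in all) was represented by its probe set of highest mean. RefSeq held all 22 NF-kB probe sets under the same symbol.

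IRF4 KO was compared with WT by limma 3.58.1 under R 4.3.3 (two-sided, lmFit then eBayes, no covariate), once over genes and once over 45037 probe sets, with Benjamini-Hochberg adjustment and a threshold of 0.05. Changes, intervals and SEs of genes come from the gene fit and those given per probe set from the probe set fit. Values were simulated on these 18193 genes, with changes set into 200 genes drawn from those above the median of all gene means. The gene test found 0% of changes of 1 log2 unit and 69.5% of changes of 2. It called 7 unaltered genes beside changes of 2, and 0 genes where none had been altered. The number of arrays limits the precision.

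The members and lists were chosen with earlier results of these data known. Named were all members, Irf4, genes fixed by role, and list genes with an unadjusted p under 0.05. Chuk, Traf3, Ripk1, Irak4, Card9, Tnip3, Bcl2a1b, Bcl2a1d and C3 had no probe set named for them alone and were not analysed here. The fits were repeated with replicate number or spike-in level as a block, array weights, a robust trend, quantile normalization, subtraction of array medians, probe sets averaged per gene, dim genes removed, arrays left out and an unadjusted threshold (for probe sets chosen after seeing the data).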

Additional observations from a re-analysis of the deposited data

How the results depend on the processing

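Under every alternative run, 0 NF-kB genes and 0 NF-kB probe sets were called. The median changes of the NF-kB and cytokine lists moved by less than their spread between arrays (SD 0.33 and 0.18), a wide yardstick. The NF-kB median ranged from -0.20 without WT 1 to 0.21 with array weights. That of the cytokine and adhesion list ranged from 0.23 without WT 2 to 0.41 without WT 3. With array weights the medians of the NF-kB and cytokine lists lay close together, at 0.21 and 0.24. Over all genes, 66 were called with array weights and 5 without the 2 low spike-in arrays, against 0 in the fit described above. At an unadjusted p under 0.05 the count was 271. The array weight fit gave IRF4 KO 2 a weight of 26.7 and stopped before convergence. In it 8 genes of the cytokine and adhesion list passed. Of the 5 genes called without the low spike-in arrays, 0 were of that list. Of 132 alternative values of the 9 gene changes, 25 turned sign, none of them called, and the cause was not tested. The 132 include the replicate block, spike-in block, robust trend and removal of dim genes. These leave the estimated change itself as it was, so their values could not turn sign. With array weights, Ikbkb read 0.037, Nfkbia 0.21, Nfkbiz 0.55 and Rel 0.076. With the mean of all probe sets Ikbkb read 0.00067 and Nfkbiz 0.18, and with quantile normalization Nfkbiz read 0.032. Without the low spike-in arrays Nfkbia read 0.046, Nfkbiz 0.51 and Tnfaip3 -0.045.

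Leaving out 1 array in turn, the changes ranged from -0.038 to 0.34 for Nfkb2, -0.58 to -0.091 for Ikbkb, -0.31 to -0.039 for Nfkbia, -1.48 to 0.31 for Nfkbie, -0.42 to 0.45 for Nfkbiz, -0.16 to 0.073 for Rel, -0.028 to 0.18 for Rela, -0.20 to 0.58 for Relb and -0.29 to 0.47 for Tnfaip3. The sign of Nfkbie turned without WT 3 (0.31) or IRF4 KO 3 (0.0041), and that of Relb without WT 1 (-0.20) or IRF4 KO 1 (-0.20). A replicate block, with a smallest adjusted p of 0.99999 over all genes, called 0 NF-kB genes and changed no call. The labels do not say that the numbers pair the arrays. The correlation of deviations was -0.52, 0.37 and -0.62 for numbers 1, 2 and 3, and IRF4 KO 1 deviated with WT 3 (0.68). These values cannot settle whether arrays of the same number were paired. Dim probe sets limit what Rel and the second probe sets of Nfkbie and Tnfaip3 can show.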
